A study of Mus musculus with 12 samples.

Results

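The acetylcholine receptor genes of the hippocampus were examined by poly(A) RNA-seq of mice that had gone through passive avoidance (PA) training. The members were 9 genes chosen by name, out of 37991 genes counted. They are the nicotinic subunit genes *Chrna4*, *Chrna5*, *Chrna7* and *Chrnb2* and the muscarinic receptor genes *Chrm1*, *Chrm2*, *Chrm3*, *Chrm4* and *Chrm5*. Passive avoidance is a single-trial aversive learning task, in which a mouse learns to stay out of a compartment where it received a foot shock. The hippocampi of 12 mice of the C57BL/6N strain were taken 1 h after the test. The sample labels give the mice an age of 6 to 7 months, while the methods of the study give another range. Of these mice, 6 are labelled Wildtype and 6 *Gadd45a*-KO (*Gadd45a*-/-), and both came from crosses between heterozygous parents. In this knockout line, a neomycin resistance cassette stands in place of the first 3 exons of *Gadd45a* in all cells, not in neurons alone. All mice had been through the task, so that neither label gives a level without training.

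Acetylcholine reaches the hippocampus mainly through axons of the septum and the diagonal band, whose cell bodies lie outside the dissected tissue, while the receptors are made by the hippocampal cells themselves. Nicotinic receptors are ion channels of several subunits around a pore and open within milliseconds. *Chrna7* encodes a subunit that can form a channel on its own, highly permeable to calcium, whereas the products of *Chrna4* and *Chrnb2* combine in the other main nicotinic receptor of the brain, to which the *Chrna5* product can be added as an accessory subunit. Muscarinic receptors are slower and act through G proteins. The products of *Chrm1*, *Chrm3* and *Chrm5* couple to Gq and phospholipase C, and those of *Chrm2* and *Chrm4* to Gi and Go, by which they inhibit adenylyl cyclase. Cholinergic signalling through both classes is known to bear on memory formation in this tissue.

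All 9 genes were found in the annotation of the NCBIM37 genome and all had enough reads to be tested. *Chrna7* (ENSMUSG00000030525) lies on the minus strand of chromosome 7 from 70243578 to 70357455. *Chrna4* (ENSMUSG00000027577) and *Chrm5* (ENSMUSG00000074939) lie on the minus strand of chromosome 2, from 180753085 to 180778251 and from 112319229 to 112320974, and *Chrm4* (ENSMUSG00000040495) on the plus strand of the same chromosome from 91762346 to 91769986. *Chrm2* (ENSMUSG00000045613) is the member that shares chromosome 6 with *Gadd45a*, from 36338084 to 36478414, at a distance of 30.5 Mb, and an intron of it holds the microRNA gene *Mir490*. The other members are on chromosomes 9 (*Chrna5*), 3 (*Chrnb2*), 19 (*Chrm1*) and 13 (*Chrm3*). For *Chrm3* and *Chrm5* the annotation holds 1 exon each, with 97 and 102 nt of 3′UTR, against 4275 nt for *Chrm1*, so that any longer untranslated region is not part of their length here. No exon of a member overlapped an exon of another gene on its own strand. On the other strand, *Chrm1* shared 329 bases with a 7SK RNA, *Chrm2* 142 bases with *9330158H04Rik*, and *Chrm4* 25 bases with *Mdk*, and the authors counted with the strand taken into account.

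Between 44594261 and 55540601 reads per library fell on genes, so that 1 read is worth 0.0180 to 0.0224 CPM, the unit of read counts scaled to a common library size. Reads on the targeted gene itself went against the label: *Gadd45a* had 2.19 to 3.43 CPM in the libraries labelled Wildtype and 20.5 to 23.1 CPM in those labelled *Gadd45a*-KO. The count covers the whole gene and does not separate the replaced exons from the remaining one. Groups are therefore named by label, and every direction below is that of the labels. The libraries labelled *Gadd45a*-KO replicates 2 and 3 stood apart in marker genes of the thalamus, which lies next to the hippocampus. *Tcf7l2*, a transcription factor of thalamic neurons, had 24.1 and 31.5 CPM in these libraries against 3.47 to 5.30 CPM in the other 10. The log2 difference of each member is given below with and without them. The tissue label itself held, since *Neurod6*, a transcription factor of pyramidal neurons, averaged 283 CPM, and *Prox1* of granule cells had at least 79.1 CPM in every library.

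Levels were compared between genes as CPM per kilobase of annotated exon (RPKM), because longer transcripts collect more reads. The paper reports that read coverage was biased toward the 3′ end, and *Chrm3* and *Chrm5* are annotated with little 3′UTR. Their RPKM, and shares built on it, are therefore not strictly comparable with those of the other members. *Chrm1* had the highest level, 48.7 ± 2.09 RPKM (SD, n = 6) in the libraries labelled Wildtype and 45.9 ± 2.77 in those labelled *Gadd45a*-KO. *Chrm3* followed with 26.0 ± 2.64 and 24.8 ± 3.08 RPKM, and *Chrnb2*, the most abundant nicotinic subunit, with 13.3 ± 0.442 and 14.0 ± 0.720 RPKM. The ranges of these genes did not overlap with each other or with the next gene under either label. Below them, *Chrm4* at 5.69 ± 0.675 RPKM and *Chrna7* at 4.44 ± 0.347 RPKM overlapped in the libraries labelled Wildtype, and *Chrna4* came next with 3.46 ± 0.381 RPKM. Under the label *Gadd45a*-KO, *Chrna4* (4.42 ± 1.71 RPKM) stood above *Chrna7* (3.53 ± 0.416 RPKM) in the means, but the ranges of these neighbours overlapped. *Chrna5*, *Chrm5* and *Chrm2* were the lowest members, with 2.07 ± 0.262, 1.11 ± 0.375 and 1.07 ± 0.131 RPKM in the libraries labelled Wildtype, and the ranges of *Chrm5* overlapped with those of both others.

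**Figure D1:**
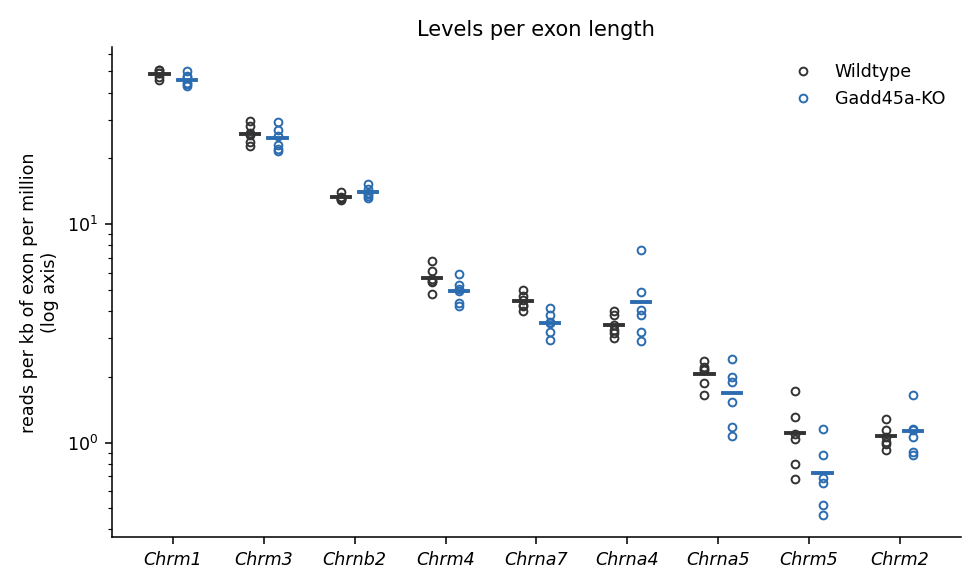
Levels of the 9 acetylcholine receptor genes per exon length. Each circle is one library (6 per label), the bar is the mean, and the vertical axis is logarithmic, in RPKM. *Chrm1*, *Chrm3* and *Chrnb2* form separate steps at the top under both labels, and *Chrm2* and *Chrm5* lie at the bottom near 1 RPKM.

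The first question was whether any receptor gene differed between the labels. At a false discovery rate (FDR) of 1%, the threshold of the study's own analysis, 0 of the 9 genes passed in either direction. The test was the quasi-likelihood F test of edgeR, and p-values were adjusted over all 16399 genes tested. Over all genes, this threshold was passed by 2.62% with lower and by 0.0244% with higher levels under the label *Gadd45a*-KO. At an unadjusted p under 0.05, *Chrna7*, *Chrm4* and *Chrm5* were lower and no member was higher, against 9.35% of all genes lower and 4.34% higher. With DESeq2, *Chrna7* alone passed 1% FDR, and the same gene passed edgeR at 5% FDR. The log2 fold change was below 0 for 6 members (2 of 4 nicotinic, 4 of 5 muscarinic) and above 0 for 3, against 48.2% and 51.8% of all genes. Its median was -0.086 over the members and 0.0033 over all genes tested.

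**Figure D2:**
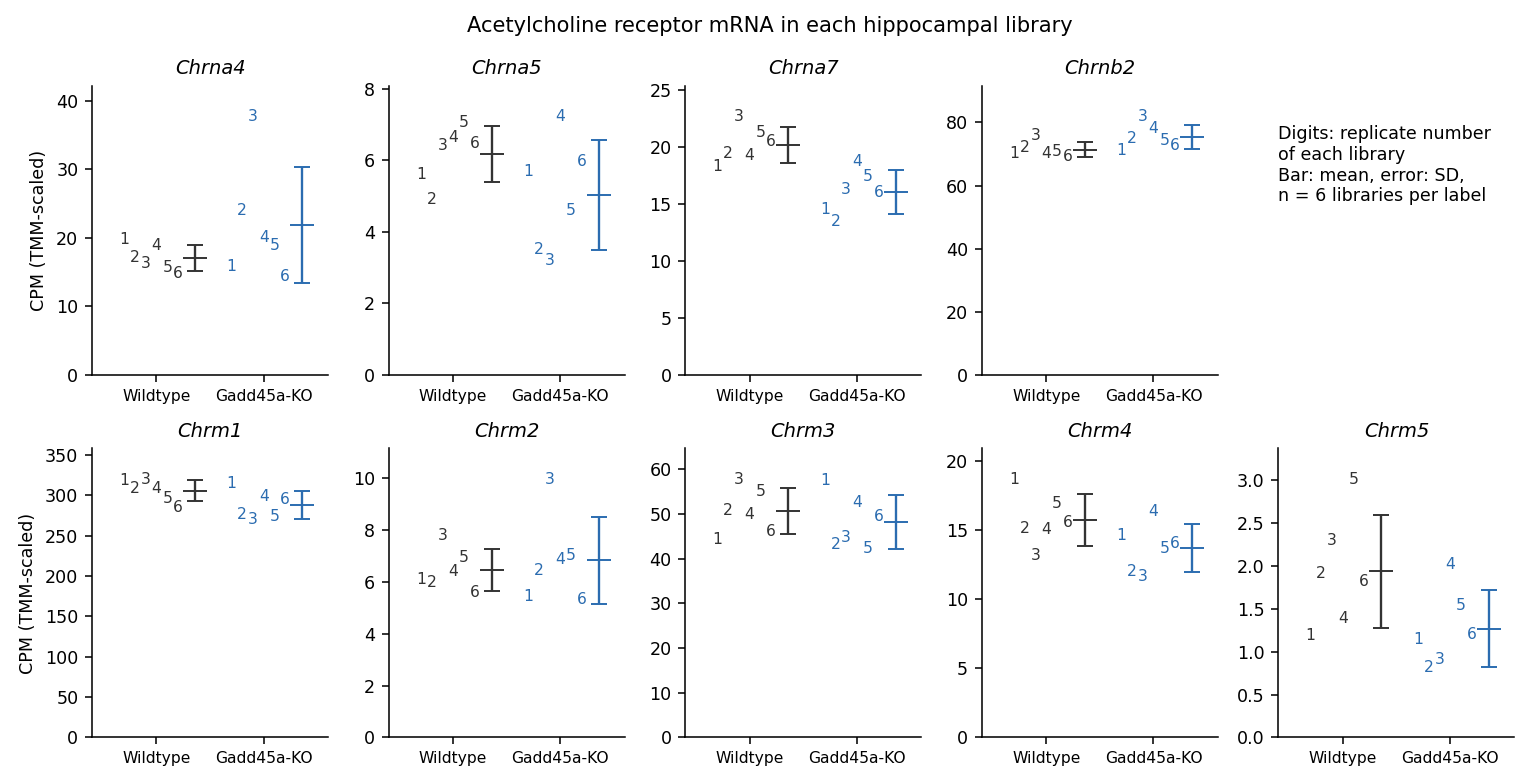
CPM of each acetylcholine receptor gene in every library. Digits are replicate numbers, the bar beside them is the mean with its SD (n = 6 libraries per label), and each vertical axis starts at 0. For *Chrna7*, 5 of the 6 libraries labelled *Gadd45a*-KO lie below all those labelled Wildtype, and for *Chrna4* the libraries labelled *Gadd45a*-KO replicates 2 and 3 lie on top.

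*Chrna7*, the gene of the calcium-permeable subunit, showed the clearest difference of the group. In the libraries labelled Wildtype its lowest, median and highest values were 18.2, 19.9 and 22.6 CPM, from 829 to 1232 reads. In those labelled *Gadd45a*-KO they were 13.4, 16.1 and 18.7 CPM, from 611 to 908 reads. The labels overlapped in a single library on either side, since replicate 4 labelled *Gadd45a*-KO lay above replicate 1 labelled Wildtype and below the other 5. The fitted level was 0.794 of that under the label Wildtype, a log2 fold change of -0.33 (standard error, SE, 0.075, 95% interval -0.49 to -0.17) with an adjusted p of 0.0171 in edgeR. Taken alone, its log2 CPM gave p = 0.00433 in a two-sided exact permutation test, where the smallest possible p is 0.00216. The same permutation test gave p = 0.0498 for *Chrnb2*, 0.0584 for *Chrm5*, 0.0714 for *Chrm1* and 0.0801 for *Chrm4*. For the remaining members its p was 0.130 to 0.727. Without the libraries labelled *Gadd45a*-KO replicates 2 and 3 the log2 fold change of *Chrna7* was -0.28 (adjusted p = 0.0733, edgeR). Without replicate 4 of that label it was -0.37 and passed 1% FDR (adjusted p = 0.00783, edgeR). Over the fits that each left out 1 library, the adjusted p ranged from 0.00783 to 0.0591.

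*Chrna4*, the partner of *Chrnb2* in the other main receptor, had 14.8, 16.7 and 19.7 CPM as lowest, median and highest value in the libraries labelled Wildtype. Under the label *Gadd45a*-KO the corresponding values were 14.4, 19.5 and 37.7 CPM. Replicate 3 of that label, with 1953 reads, and replicate 2, with 1094 reads and 24.0 CPM, were the highest of all 12 libraries. On the log2 scale the difference was 0.35 (SE 0.19, 95% interval -0.049 to 0.76, adjusted p = 0.451 in edgeR). It came to 0.13 without replicate 3 and to 0.018 without both of these libraries, so that the difference between the labels rested on them.

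*Chrnb2* varied least of the nicotinic genes, with a coefficient of variation of 3.34% in the libraries labelled Wildtype and 5.14% in those labelled *Gadd45a*-KO. Its lowest, median and highest values were 69.4, 70.4 and 75.9 CPM under the label Wildtype and 71.0, 74.5 and 81.8 CPM under the label *Gadd45a*-KO. The groups overlapped, and the log2 fold change was 0.080 (SE 0.038, 95% interval -0.00087 to 0.16, adjusted p = 0.374 in edgeR), and 0.052 without *Gadd45a*-KO replicates 2 and 3. *Chrna5*, the accessory subunit, had 4.92, 6.44 and 7.07 CPM under the label Wildtype and 3.20, 5.14 and 7.22 CPM under the label *Gadd45a*-KO. Both the lowest and the highest library of *Chrna5* were thus labelled *Gadd45a*-KO. Its lowest libraries were replicates 3 (166 reads) and 2 (160 reads), those in which *Chrna4* was highest. Its difference of -0.30 on the log2 scale (SE 0.17, 95% interval -0.67 to 0.068, adjusted p = 0.499 in edgeR) became -0.078 without them.

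Among the Gq-coupled muscarinic genes, *Chrm1* had 285, 308 and 320 CPM as lowest, median and highest value in the libraries labelled Wildtype and 269, 286 and 314 CPM in those labelled *Gadd45a*-KO. With at least 12585 reads per library it was the member with the most reads. Between the labels it differed by -0.086 on the log2 scale (SE 0.044, 95% interval -0.18 to 0.0068, adjusted p = 0.419 in edgeR), and by -0.050 without replicates 2 and 3 labelled *Gadd45a*-KO. The 3 lowest libraries were replicates 3, 5 and 2 labelled *Gadd45a*-KO, at 269, 274 and 277 CPM, all below every library labelled Wildtype.

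*Chrm3* had 44.2, 50.4 and 57.7 CPM under the label Wildtype and 42.2, 47.1 and 57.5 CPM under the label *Gadd45a*-KO, a nearly complete overlap. It differed by -0.069 on the log2 scale (SE 0.082, 95% interval -0.24 to 0.11, adjusted p = 0.813 in edgeR), and by -0.0061 without the same pair of libraries. *Chrm5*, the rarest muscarinic transcript by reads, had the largest fitted difference of the members and the least precise one. It was counted with 54 to 158 reads in the libraries labelled Wildtype (lowest, median and highest 1.19, 1.87 and 3.00 CPM) and with 37 to 98 reads in those labelled *Gadd45a*-KO (0.813, 1.17 and 2.02 CPM). The coefficient of variation was 33.8% and 35.1%, against 10.1% and 12.7% from counting error alone. The fitted log2 fold change was -0.61 (SE 0.25, 95% interval -1.14 to -0.088, adjusted p = 0.260 in edgeR), and -0.40 without *Gadd45a*-KO replicates 2 and 3, its lowest libraries. The labels overlapped, since replicates 1 and 4 labelled Wildtype had 1.19 and 1.39 CPM while replicates 4 and 5 labelled *Gadd45a*-KO had 2.02 and 1.54 CPM.

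Of the Gi-coupled receptors, *Chrm4* had 13.2, 15.3 and 18.7 CPM under the label Wildtype and 11.7, 13.9 and 16.4 CPM under the label *Gadd45a*-KO. It differed by -0.20 on the log2 scale (SE 0.091, 95% interval -0.39 to -0.0030, adjusted p = 0.356 in edgeR), and -0.10 without the libraries labelled *Gadd45a*-KO replicates 2 and 3, its lowest ones. *Chrm2*, which is known from interneurons and from cholinergic and other long-range terminals, had 5.57, 6.24 and 7.79 CPM under the label Wildtype and 5.32, 6.66 and 9.95 CPM under the label *Gadd45a*-KO. The top value was again replicate 3 labelled *Gadd45a*-KO. On the log2 scale *Chrm2* differed by 0.081 (SE 0.14, 95% interval -0.21 to 0.37, adjusted p = 0.880 in edgeR), and its sign turned to -0.051 without that library and to -0.072 without replicate 2 as well.

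**Figure D3:**
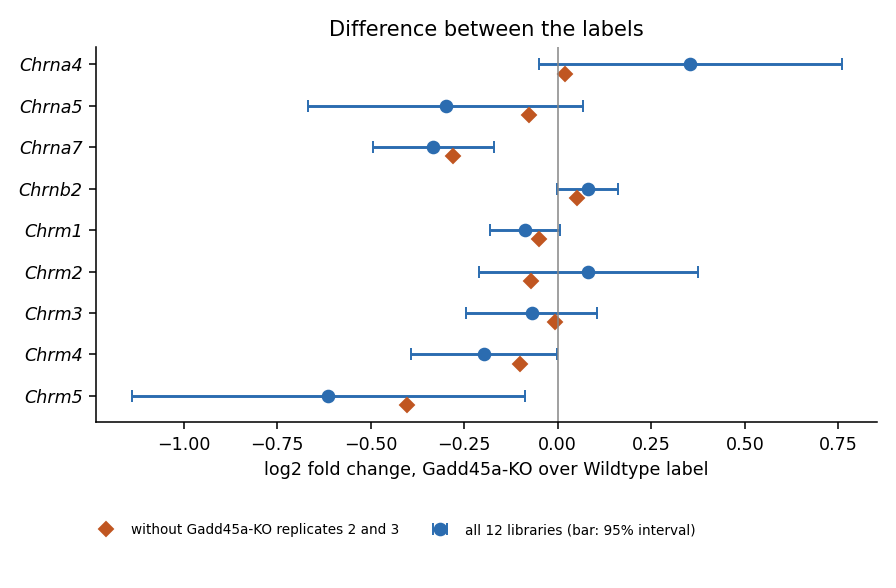
Log2 fold change of each acetylcholine receptor gene, label *Gadd45a*-KO over label Wildtype. Circles with bars are the fits over all 12 libraries with 95% intervals, and diamonds are the fits without *Gadd45a*-KO replicates 2 and 3. *Chrna7* stays near -0.3 in both, while *Chrna4* and *Chrna5* move close to 0.

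Markers of neighbouring tissue and of hippocampal cell types are given here beside the member values of the same libraries. All 7 thalamic markers with a value (*Tcf7l2*, *Prkcd*, *Rora*, *Lef1*, *Plekhg1*, *Ptpn3* and *Slc17a6*) had their highest values in replicates 2 and 3 labelled *Gadd45a*-KO. Their summed level was 481 and 690 CPM there, against 252 to 293 CPM in the other 4 libraries of that label and 240 to 294 CPM in those labelled Wildtype. In the same pair of libraries *Chrna4* was highest, and *Chrna5*, *Chrm4* and *Chrm5* were lowest, of all 12.

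Replicate 3 also had the highest summed level of the 5 oligodendrocyte markers, 6898 CPM against 2180 to 3539 CPM in the other 11 libraries, with *Mbp*, the myelin basic protein gene, at 2951 CPM. Replicate 2 differed from it in markers of the medial habenula, a small nucleus beside the thalamus. The summed level of the 6 habenular markers was 60.9 CPM there and 35.0 to 54.8 CPM in the other libraries. Most of this sum was *Nwd2*, which at 45.6 CPM in replicate 2 lay within its range under the label Wildtype (36.6 to 52.5 CPM). *Pou4f1*, a transcription factor of habenular neurons, had 2.42 CPM in replicate 2 and at most 0.0890 CPM in the other libraries, and *Gpr151* had 5.87 CPM against at most 1.16 CPM. The habenular receptor subunit genes *Chrnb4* and *Chrna3* were highest in replicate 2 as well, with 1.38 and 1.34 CPM.

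Of the 8 pyramidal and granule cell markers, *Wfs1* and *Fibcd1*, named here after their values were seen, were lowest in replicates 2, 3 and 5 labelled *Gadd45a*-KO. *Wfs1* had 120, 113 and 90.5 CPM there and at least 149 CPM elsewhere, and *Fibcd1* had 99.4, 92.9 and 97.1 CPM there and at least 128 CPM elsewhere. *Spink8* was also lowest of that label in these libraries, at 18.0, 22.1 and 19.4 CPM. Under the label Wildtype it had 19.3 to 28.0 CPM. The remaining markers of the list did not share this order. *Neurod6*, at 270, 287 and 266 CPM, and *C1ql2*, at 74.9, 46.1 and 58.3 CPM, lay within the ranges under the label Wildtype (236 to 332 and 39.7 to 98.4 CPM), *Iyd*, at 9.63, 10.6 and 10.3 CPM, lay in or above it (6.46 to 9.95 CPM), and *Prox1* and *Dsp* were lowest in replicate 4. The sum of the 8 markers was 850, 782 and 827 CPM in replicates 2, 3 and 5 and 951 to 1029 CPM in the other 9 libraries. *Chrm1* was lowest of all libraries in the same 3, of which replicate 5 had a thalamic sum of 272 CPM, and *Chrm3*, at 43.1, 44.8 and 42.2 CPM, was lowest among the libraries of that label, though replicate 1 labelled Wildtype had 44.2 CPM. In homogenised tissue, fewer cells of a type and less RNA per cell cannot be told apart. *Chrm5* was highest under each label in the library with the most *Fibcd1*, which had 208 CPM in replicate 4 labelled *Gadd45a*-KO and 195 CPM in replicate 5 labelled Wildtype. Of the other markers in the list, only *Spink8* was highest in both of these libraries. Under the label Wildtype, *Wfs1* was highest in replicate 4 (202 CPM), where *Chrm5* had 1.39 CPM, and *Neurod6* in replicate 3 (332 CPM).

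*Chrna7* was lowest in replicate 2 labelled *Gadd45a*-KO, at 13.4 CPM, and next lowest in replicate 1, at 14.5 CPM with a thalamic sum of 293 CPM. Replicate 3, with the highest thalamic sum, had 16.2 CPM of *Chrna7*, and replicate 6, with a sum of 253 CPM, had 16.0 CPM. Replicates 4 and 5 of that label, with sums of 252 and 272 CPM, had the highest *Chrna7* values of the label, 18.7 and 17.4 CPM. Whether *Chrna7* follows the thalamic sum was not tested. Summed markers of the striatum, where *Chrm4* is abundant, ranged from 53.8 to 63.2 CPM under the label Wildtype and from 55.1 to 62.3 CPM under the label *Gadd45a*-KO. Those of microglia were 227 to 250 CPM under the label Wildtype and 238 to 273 CPM under the label *Gadd45a*-KO, and those of astrocytes 1234 to 1563 and 1376 to 1523 CPM. Interneuron markers summed to 718 to 817 CPM under the label Wildtype and 682 to 817 CPM under the label *Gadd45a*-KO. The list of cholinergic neurons stayed at 0.551 to 0.879 and 0.530 to 0.879 CPM. The choroid plexus list ranged from 37.6 to 65.1 and from 30.6 to 80.5 CPM. No tested marker of any list passed 1% FDR, against 2.62% of all genes lower and 0.0244% higher. That test compares the labels and does not address single libraries, such as *Gadd45a*-KO replicates 2 and 3 with their high thalamic markers. The part of tissue composition in the receptor values was not tested beyond leaving out the libraries named.

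**Figure D4:**
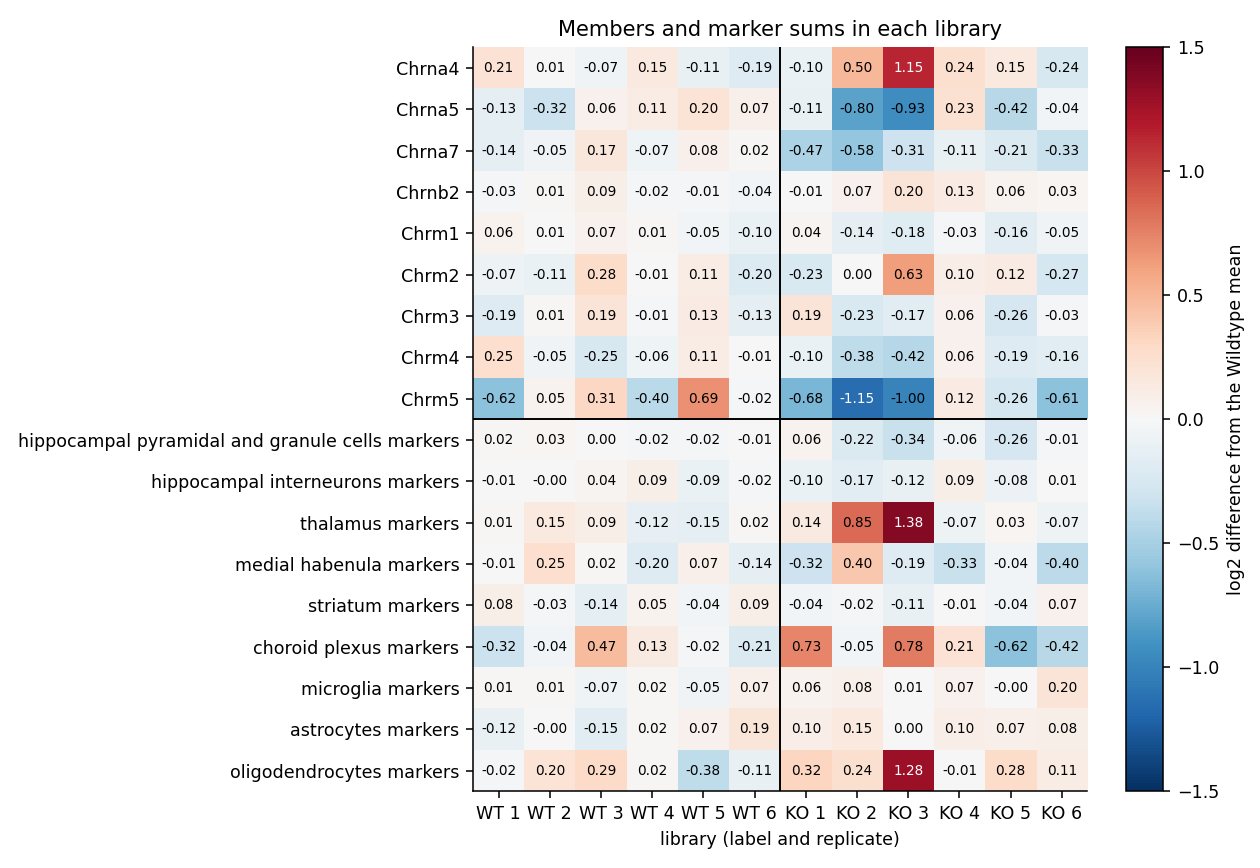
Log2 difference of each library from the mean of the libraries labelled Wildtype, for the 9 receptor genes (top, log2 CPM) and the summed CPM of 9 marker lists (bottom). Columns are libraries by label and replicate, and red is higher, blue lower. In the column of *Gadd45a*-KO replicate 3, *Chrna4* (1.15), *Chrm2* (0.63), the thalamic list (1.38) and the oligodendrocyte list (1.28) are high, while *Chrna7* is below 0 in all 6 columns of that label.

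The shares within each receptor class were compared next. *Chrm1* made up 55.9% to 62.0% of the summed muscarinic RPKM under the label Wildtype and 57.5% to 61.2% under the label *Gadd45a*-KO, and *Chrm3* 27.7% to 33.7% and 30.0% to 34.1%. Among the nicotinic members, *Chrna7* made up 17.5% to 20.3% of the summed RPKM under the label Wildtype and 12.9% to 16.7% under the label *Gadd45a*-KO. The ratio of *Chrnb2* to *Chrna7* in RPKM was correspondingly 2.81 to 3.24 and 3.53 to 4.71. These last measures do not overlap between the labels, but they were chosen after the values of both genes were seen and are given without a test.

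The rest of the cholinergic machinery was described from lists of 55 genes, of which 54 had a count and 47 enough reads to be tested. At 1% FDR, 2 of the 47 fell under the label *Gadd45a*-KO and 0 rose, against 2.62% and 0.0244% of all genes. These were *Trpc5* and *Kcnq3*, both already reported as reduced in the knockout by the paper from the same data. The lists were chosen with earlier results of these data known, so this count is a description and not an independent result. The median log2 fold change was 0.018 over the 47 genes and -0.11 over the 9 channel genes on which muscarinic receptors act. At an unadjusted p under 0.05, 4 of these 9 passed, all lower, against 9.35% of all genes lower and 4.34% higher. Among the 4 were *Kcnj3* and *Kcnj6*, at log2 differences of -0.11 and -0.28 (adjusted p = 0.143 and 0.158 in edgeR). Without *Gadd45a*-KO replicates 2 and 3 these were -0.077 and -0.18. Both genes called at 1% FDR are in this channel list. *Trpc5*, a cation channel opened through Gq, had 16.4 to 22.9 CPM under the label Wildtype and 4.88 to 8.77 CPM under the label *Gadd45a*-KO, without overlap (log2 difference -1.60, SE 0.13, adjusted p = 3.83e-06 in edgeR). *Kcnq3*, a subunit of the M-current channel that muscarinic receptors close, had 17.4 to 34.5 CPM and 8.42 to 16.4 CPM, also without overlap (log2 difference -1.16, SE 0.18, adjusted p = 0.00115 in edgeR). Both were called under every alternative, also without *Gadd45a*-KO replicates 2 and 3. The counts cover annotated exons, and for *Kcnq3* the paper reports no significant difference at the distal end of its extended 3′UTR. Of all genes, 3.12% had every library labelled *Gadd45a*-KO below every library labelled Wildtype.

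Upstream of these channels, 0 of 18 genes for G proteins, phospholipases and their regulators passed 1% FDR, with a median log2 fold change of 0.019. At an unadjusted p under 0.05, 4 passed: *Plcb1*, *Itpr1* and *Prkcb* lower and *Rgs4* higher. Among all genes tested, 9.35% were lower and 4.34% higher at this p. *Plcb1*, the phospholipase C that follows *Chrm1* in the hippocampus, had the smallest p, with 279 ± 19.9 CPM (SD, n = 6) against 245 ± 10.2 CPM (log2 difference -0.19, SE 0.047, adjusted p = 0.0353 in edgeR), and it passed 1% FDR with DESeq2. *Gnao1*, the G protein gene with the highest level per length at 102 RPKM, had a log2 fold change of 0.018. Of 8 genes for nicotinic receptor assembly and Ly6-type partner proteins, 0 passed (1 at an unadjusted p under 0.05). *Lynx1*, a membrane protein that restrains nicotinic receptors and the most abundant of these at 121 RPKM, differed by 0.13 on the log2 scale (adjusted p = 0.479 in edgeR). *Lypd1* had the smallest p, at a log2 difference of -0.17 (adjusted p = 0.337 in edgeR), or -0.066 without *Gadd45a*-KO replicates 2 and 3.

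Genes of acetylcholine synthesis and reuptake had few reads. *Chat*, which makes acetylcholine, had 0 to 4 reads per library, and *Slc5a7*, the choline transporter of cholinergic terminals, 22 to 42 reads. *Lhx8*, a transcription factor of basal forebrain cholinergic neurons, had no read in any library. *Ache*, the esterase that breaks acetylcholine down, had 54.6 ± 4.88 and 55.3 ± 4.94 CPM (SD, n = 6), and *Slc44a1*, a choline transporter of many cell types, had the highest level of this list at 12.3 RPKM. Of the 6 tested genes 0 passed 1% FDR. At an unadjusted p under 0.05 there were 0, against 9.35% of all genes lower and 4.34% higher. The smallest p was that of *Prima1*, the membrane anchor of the esterase, at a log2 difference of 0.50 (adjusted p = 0.453 in edgeR). *Prima1* had 150 reads (2.89 CPM) in replicate 3 labelled *Gadd45a*-KO and at most 1.45 CPM in the other libraries, and its log2 difference was 0.16 without replicate 3.

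The other 12 nicotinic subunit genes were rare, and 6 of them had too few reads to be tested. Of the 6 tested, 0 passed 1% FDR. At an unadjusted p under 0.05 there was 1, against 9.35% of all genes lower and 4.34% higher. *Chrnb3* had the smallest p, at a log2 difference of 1.36 (SE 0.58, adjusted p = 0.310 in edgeR), and *Chrna1* the highest level per length at 0.452 RPKM. *Chrnb3* was highest in replicates 2 and 3 labelled *Gadd45a*-KO, with 102 and 94 reads, while the other 10 libraries had 7 to 31 reads, and without this pair its log2 difference was -0.17. *Chrna6*, which was not tested and is named here because its values were seen, had 22 and 41 reads in the same pair and 1 to 5 reads in the other libraries. *Chrng*, the subunit of fetal muscle, had no read.

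The genes whose variation between libraries was most like that of each member were found from log2 CPM, as deviations from the mean of the label over the 12 libraries. Each pair was picked as the highest of all genes tested, and its points share the depth and tissue makeup of 12 libraries, so the values describe these libraries only. For *Chrna7* they were *Cnr1*, the cannabinoid receptor gene (Pearson's r = 0.968), and *Dock9* (0.958). *Chrna4* varied most like *Grin2d* (0.962) and *Fhdc1* (0.952), with replicate 3 labelled *Gadd45a*-KO farthest from its mean, and r was 0.903 and 0.798 without that library and replicate 6. *Chrm2* varied most like *Rap1gds1* (0.976) and *Tbcd* (0.964), *Chrnb2* like *Epb4.1l3* (0.949) and *Pvrl4* (0.912), and *Chrna5* like *B3gat1* (0.977) and *Phactr1* (0.969). *Chrm1* varied most like *Tesc* (0.938) and *Sgsm3* (0.936), *Chrm3* like *1110018G07Rik* (0.913) and *Epha6* (0.903), *Chrm4* like *Sobp* (0.961) and *Dnajb1* (0.945), and *Chrm5* like *Plxna2* (0.965) and *Trim37* (0.950). Without the 2 libraries farthest from the mean, r was 0.883 and 0.794 for *Chrnb2* and at least 0.895 for the members other than *Chrna4* and *Chrnb2*.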

How the data were processed

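According to the methods of the study, poly(A) RNA was sequenced from 12 hippocampi, and the authors aligned the reads with TopHat 1.4.1 to NCBIM37/mm9 and counted them per Ensembl gene with HTSeq 0.5.4p3. The deposited values are raw read counts, 1 file per library, with no normalization and no pooling. Rows for reads without a gene held 24.1% to 26.3% of a file's total and were left out. Among them, reads on no annotated feature made up 12.64% to 13.91% under the label Wildtype and 11.47% to 12.57% under the label *Gadd45a*-KO, without overlap. How this share bears on the receptor values was not tested. Names, lengths and positions come from the GENCODE M1 annotation of NCBIM37, which precedes the Ensembl release of the counts and matched 37205 of 37991 IDs. *Slc18a3* was not analysed here, and *Ntng1* matched more than 1 ID and was left out.

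Genes were filtered and TMM-normalized with edgeR 4.0.16 (R 4.3.3) and compared without covariates by its quasi-likelihood test at 1% FDR with Benjamini-Hochberg adjustment. Log2 CPM used a prior count of 2. Standard errors were derived from the fold change and its F statistic. Exact permutation tests were run with scipy 1.17.1 (Python 3.11.15), and figures drawn with matplotlib 3.10.9. Alternatives were DESeq2 1.42.0, RLE factors, other filters, 5% FDR, a replicate block, spline offsets (5 degrees of freedom) for exonic length or GC content, and leaving out libraries. The fits were also tested on simulated counts. The members, lists and rule for named genes were chosen with earlier results of these data known: all members, of each list the genes at 1% FDR or the smallest p and the highest RPKM, and the 2 most similar genes per member. One result that this rule names is not reported here. No library looked like a copy of another: chi-square per degree of freedom was 8.60 to 37.8 over the 30 pairs within a label.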

Additional observations from a re-analysis of the deposited data

Results flagged for a closer look

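One value lay far from the rest of its label among the 18 groups of 6 libraries examined for the members, where 0.9 would be expected by chance. *Chrm2* had 9.95 CPM in replicate 3 labelled *Gadd45a*-KO, while the other 5 libraries of that label had 5.32 to 7.00 CPM (gap over range 0.638). This is the library with the highest thalamic and oligodendrocyte marker sums, 690 and 6898 CPM.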

How the results depend on the processing

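At 1% FDR, no member passed in edgeR with RLE factors, either other filter, or an offset for exonic length or GC content with or without the block. The number of members lower was 1 with DESeq2, with 5% FDR and with the replicate block, in each case *Chrna7*, at log2 fold changes of -0.33, -0.33 and -0.34 (adjusted p = 0.00160, 0.0171 and 0.00954). Over all alternatives for *Chrna7*, the adjusted p ranged from 0.00160 to 0.0733. Leaving out each library in turn gave 0 or 1 members lower, with *Chrna7* from -0.37 to -0.28 (adjusted p from 0.00783 without *Gadd45a*-KO replicate 4 to 0.0591 without Wildtype replicate 5). *Chrm2* ranged from -0.051 to 0.15 over these fits, turning below 0 without *Gadd45a*-KO replicate 3. With *Gadd45a*-KO replicates 2 and 3 excluded, chosen after seeing the data, *Chrm2* was -0.072. The other members kept their sign in every alternative. No higher member and 2 or 3 lower genes of the cholinergic lists were called in any.

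Over all genes, 430 were lower and 4 higher. DESeq2 gave 661 and 19, 5% FDR 726 and 20, and the offset for exonic length 275 and 9. The number of higher genes was 10 with the length offset and block, 15 with the GC offset, and 16 with the GC offset and block. Leaving out each library gave 239 to 467 lower and 3 or 4 higher genes, with 239, 248, 248, 261, 268 and 276 lower without Wildtype replicate 5, *Gadd45a*-KO replicates 1 and 6, Wildtype replicates 6 and 3, and *Gadd45a*-KO replicate 2, and excluding both libraries 199 lower, with fewer samples. The labels give no meaning for the replicate numbers, and the main fit did not take them to pair the samples. Of 6 same-numbered pairs, 5 had a correlation over 0.1 and the sixth was -0.0761. Differently numbered pairs ranged from -0.327 to 0.260, and 4 of 12 libraries correlated best with their own number. These values do not settle whether the numbers mark pairs. Read depth limits *Chrm5* most, at 37 to 158 reads.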
